A study of Mus musculus with 7 samples.

Results

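The genes described here are 10 genes of the Wnt pathway, most of them known transcriptional targets, taken as a list of symbols. They are Axin2, Rnf43, Znrf3, Sp5, Nkd1, Sox9, Myc, Cd44, Ephb2 and Wnt3. All 10 were among the 37310 genes of the count table and among the 14626 that passed the filter on low counts. The series measured RNA of sorted Bmi1-marked cells of the mouse intestinal crypt in 7 libraries. All mice carried Bmi1creERT2, an inducible Cre driven by the Polycomb gene Bmi1, and a Rosa26 red fluorescent reporter. They were fed 1 of 3 diets from weaning until they were 3 months old. AIN76A, a purified control diet, had 2 libraries. NWD1, a purified Western-style diet richer in fat and poorer in calcium, vitamin D3 and methyl donors, had 3. NWD2, which is NWD1 with more calcium and vitamin D3, had 2. Crypt cells with strong red fluorescence that carried Epcam and lacked CD45 were collected in bulk. The labels do not say whether libraries came from separate animals, so p-values measure only the spread between these libraries.

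Wnt proteins bind Frizzled receptors and the co-receptors Lrp5 and Lrp6, which stops the destruction complex from degrading beta-catenin, and beta-catenin then activates target genes together with TCF/LEF factors on DNA. In the crypt this signal is strongest at the base, where it maintains stem cells and Paneth cells. Several of its targets encode proteins that switch the signal off again, so their RNA is widely used as a readout of the pathway.

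Before the values, the bases upstream of 3 genes are shown, the general feedback target Axin2 and the pair Sp5 and Nkd1. For that pair, all 3 NWD1 libraries lay above the other 4 in the results that follow. Each line is the 250 bases before the annotated start, 5′ to 3′ on the gene's strand, from RefSeq on build GRCm38.p6. The counts themselves were made on mm9. Capitals mark CTTTGA, the core of the TCF/LEF motif, searched on both strands. The positions are chr11:108920099-108920348 for Axin2, chr2:70474673-70474922 for Sp5 and chr8:88527383-88527632 for Nkd1, all on the plus strand.
Axin2: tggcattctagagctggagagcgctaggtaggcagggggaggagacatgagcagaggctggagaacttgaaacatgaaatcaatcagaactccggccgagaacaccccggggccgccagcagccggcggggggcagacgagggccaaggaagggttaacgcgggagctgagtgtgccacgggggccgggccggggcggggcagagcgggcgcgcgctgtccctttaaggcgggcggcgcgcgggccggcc
Sp5: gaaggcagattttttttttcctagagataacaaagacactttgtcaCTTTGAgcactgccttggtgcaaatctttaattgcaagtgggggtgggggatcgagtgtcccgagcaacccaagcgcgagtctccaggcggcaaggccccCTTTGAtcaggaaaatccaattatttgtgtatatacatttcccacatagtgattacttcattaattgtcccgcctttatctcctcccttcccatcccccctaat
Nkd1: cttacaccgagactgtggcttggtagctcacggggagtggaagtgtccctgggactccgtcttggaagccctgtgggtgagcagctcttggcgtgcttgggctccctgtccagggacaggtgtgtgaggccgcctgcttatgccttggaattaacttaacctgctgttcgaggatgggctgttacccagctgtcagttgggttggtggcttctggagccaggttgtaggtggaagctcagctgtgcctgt
The table of promoters held 7 of the 10 genes, with 8 start sites, and only the Sp5 window had a match. Its 2 matches lie 204 to 199 and 104 to 99 bases before the start, both on the plus strand, and the nearer one reads CTTTGAT. Of 32851 mouse promoter windows of that length, 13.8% hold at least 1 CTTTGA on either strand, 1.37% hold at least 2 and 3.21% hold CTTTGAT, which contains CTTTGA. A match is a description of letters, not of a bound site, and windows without a match say nothing about TCF/LEF factors.

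Total counts ran from 14034315 in NWD1 replicate 3 to 77959407 in NWD2 replicate 2, and the other 5 libraries had 39657707 to 71331627. The deposited TPM table has a column headed as NWD2 replicate 3, which no sample is, and none for NWD1 replicate 3, so the diet of that library is less certain. NWD1 replicate 2 came from the only female. NWD2 replicate 2 stood apart in epithelial genes in both directions, with 225 CPM (counts scaled to a common depth) of Epcam against 510 to 1338 elsewhere. It was lowest for 2 and highest for 3 of 7 epithelial genes, with Krt20 at 3409 CPM against 1353 to 2175 and Vil1 at 3270 against 1378 to 2228. Both NWD2 libraries carried i5 index N504 and both AIN76A libraries N503 (NWD1 replicate 3 had N504 and the other NWD1 libraries N503), so index and diet cannot be told apart in that comparison. Epithelial genes matched the sort, with Krt8 at 1743 to 3530 CPM, while Ptprc, which encodes CD45, had 1.17 to 5.75 CPM. The endothelial gene Cdh5 was at 0 in all 7 libraries, but other stromal and endothelial markers were detected. Of 8 such markers, 6 and 3 were at 0 in the AIN76A libraries, 3 to 4 in NWD1 and 1 in each NWD2 library. Their sums were 5.78 to 9.91 CPM on AIN76A, 5.11 to 9.21 on NWD1 and 2.17 to 3.09 on NWD2. Of the 4 that passed the filter, 2 were higher and 2 lower with NWD2 against AIN76A. In bulk RNA, fewer cells of a type and less RNA per cell cannot be told apart.

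Per gene length, the 10 genes covered a wide range of levels. Means over the 7 libraries, in TPM (counts scaled by gene length and depth), were 12.7 for Myc, 10.7 for Sox9, 8.02 for Rnf43, 5.38 for Sp5, 4.75 for Wnt3, 3.57 for Cd44, 1.52 for Axin2, 1.01 for Ephb2, 0.467 for Znrf3 and 0.360 for Nkd1. Axin2, often taken as the standard readout of the pathway, thus ranked 7th of 10. Cd44 exceeded Axin2 in 7 of 7 libraries and Ephb2 exceeded Znrf3 in 7 of 7. The order of other neighbours held in fewer: Myc was above Sox9, Sp5 above Wnt3 and Znrf3 above Nkd1 in 4 of 7 each, and these pairs did not differ beyond their spread.

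**Figure D1:**
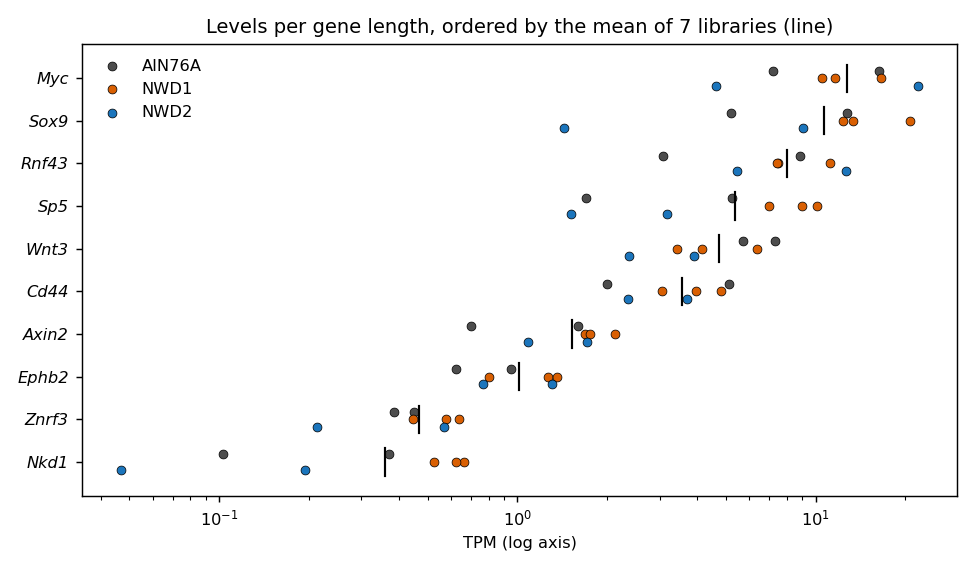
Level of each gene per gene length in 7 libraries, in TPM on a log axis, with genes ordered by their mean (vertical line) and points coloured by diet. Myc and Sox9 lead with means of 12.7 and 10.7 TPM, and Nkd1 is lowest at 0.360 TPM. For Sox9 and Nkd1 the point farthest to the left is NWD2 replicate 2, at 1.44 and 0.047 TPM.

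The genes also differed in how steady they were. The standard deviation of log2 CPM over the 7 libraries was larger for Nkd1 than for 94.4% of all genes tested, for Sox9 than for 93.5% and for Sp5 than for 88.3%. For Cd44 it was larger than for 40.3% and for Axin2 than for 42.6%. The highest library exceeded the lowest 11.7-fold for Sox9, 11.4-fold for Nkd1 and 5.43-fold for Sp5, against 2.43-fold for Axin2 and 2.03-fold for Cd44. Nkd1 values rest on 8 to 93 counts per library, so counting error is part of their spread.

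None of the 10 genes was called in any comparison by the quasi-likelihood test of edgeR (Benjamini-Hochberg adjusted p under 0.05), which called 0 of 14626 genes (0%) in each. At an unadjusted p under 0.05 stood 500 genes (3.42%) for NWD1 and 560 (3.83%) for NWD2 against AIN76A, and 1154 (7.89%) for NWD2 against NWD1. DESeq2 called 1 (0.00684%), 52 (0.356%) and 180 (1.28%) genes. Values are given library by library. Both comparisons with AIN76A share its 2 libraries, and both comparisons with NWD1 share its 3.

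**Figure D2:**
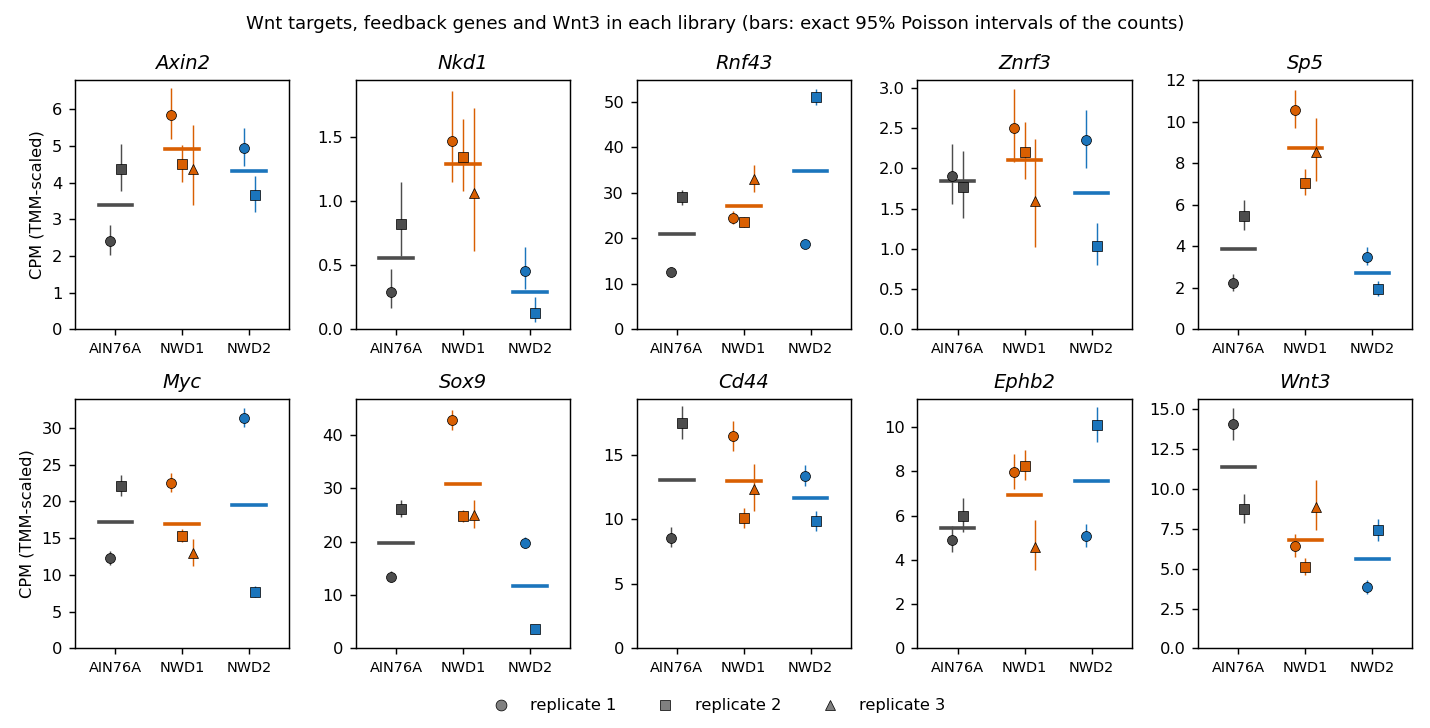
CPM of the 10 genes (TMM-scaled, linear axes from 0) in each library, by diet, with replicate number as symbol, a horizontal line at the diet mean and vertical bars for the exact 95% Poisson interval of the count, which covers counting error only. For Sp5 and Nkd1 the 3 NWD1 libraries lie above all 4 others.

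Negative feedback inside the cell is represented by Axin2 and Nkd1. Axin2 is a scaffold of the destruction complex. It had 2.41 and 4.38 CPM on the AIN76A diet, 5.86, 4.504 and 4.38 on NWD1 and 4.95 and 3.67 on NWD2. AIN76A replicate 1 was the lowest library, and the lowest NWD1 value lay above the other AIN76A value only in the third decimal (4.382 against 4.377 CPM). The log2 fold change with NWD1 against AIN76A was 0.54 (SE 0.39, 95% interval -0.34 to 1.41, edgeR adjusted p = 0.878). Without AIN76A replicate 1 that value was 0.16, and without AIN76A replicate 2 it was 1.03. NWD2 against NWD1 gave -0.19 (SE 0.38, interval -1.05 to 0.67).

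Nkd1 binds Dishevelled and dampens the signal. It had 0.288 and 0.822 CPM on the AIN76A diet, 1.47, 1.34 and 1.06 on NWD1 and 0.453 and 0.129 on NWD2. Every NWD1 library was above every library of the other diets. The log2 fold change was 1.24 (SE 0.68, edgeR adjusted p = 0.878) with NWD1 against AIN76A and -2.14 (SE 0.71, 95% interval -3.74 to -0.54, unadjusted p = 0.0143, adjusted p = 0.533) with NWD2 against NWD1. With NWD2 against AIN76A it was -0.90 (SE 0.74), and those libraries overlapped. The value with NWD1 against AIN76A was 0.65 without AIN76A replicate 1 and 2.16 without AIN76A replicate 2. The value with NWD2 against NWD1 was -1.51 without NWD2 replicate 2 and -3.34 without NWD2 replicate 1, and its unadjusted p was no longer under 0.05 without NWD2 replicate 2 or with a term for the i5 index. The lowest NWD1 value comes from the shallow replicate 3, where 16 counts allow 0.607 to 1.73 CPM, an interval that reaches down to the higher AIN76A value.

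Rnf43 and Znrf3 encode paired membrane ubiquitin ligases that remove Frizzled receptors from the surface. Rnf43 had 12.7 and 29.0 CPM on the AIN76A diet, 24.5, 23.5 and 33.1 on NWD1 and 18.8 and 51.0 on NWD2. Values of every diet overlapped, and the 2 NWD2 libraries lay further apart than any 2 libraries of another diet. Its largest log2 fold change, 0.74 (SE 0.51) with NWD2 against AIN76A, was -0.15 without NWD2 replicate 2. Znrf3 had 1.91 and 1.77 CPM on the AIN76A diet, 2.504, 2.202 and 1.59 on NWD1 and 2.35 and 1.03 on NWD2, again with overlap throughout. NWD2 replicate 2 was thus the highest library for Rnf43 and the lowest for Znrf3. Of the TPM of both ligases, Rnf43 made up 88.9% to 98.4% across the libraries.

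Sp5 encodes a zinc finger repressor induced directly by beta-catenin. It had 2.23 and 5.47 CPM on the AIN76A diet, 10.6, 7.07 and 8.57 on NWD1 and 3.49 and 1.95 on NWD2. As for Nkd1, all 3 NWD1 libraries were above the other 4. The log2 fold change was 1.19 (SE 0.47, 95% interval 0.13 to 2.24, unadjusted p = 0.0317, edgeR adjusted p = 0.878) with NWD1 against AIN76A. With NWD2 against NWD1 it was -1.68 (SE 0.48, interval -2.76 to -0.60, unadjusted p = 0.00626, adjusted p = 0.504). NWD2 against AIN76A gave -0.50 (SE 0.50) with overlapping libraries. The NWD1 value against AIN76A was 0.67 without AIN76A replicate 1 and 1.97 without AIN76A replicate 2. Its unadjusted p was no longer under 0.05 with a term for replicate number or i5 index. The same held without NWD1 replicate 1 or NWD1 replicate 3. For this comparison no p-value is given for fits that kept a single AIN76A library. In the comparison of NWD2 with NWD1, Sp5 was called by DESeq2 (adjusted p = 0.0310) and by edgeR with no filter on low counts (adjusted p = 0.0203, where 1.57% of genes were called). Elsewhere its adjusted p reached 0.999, and the log2 fold change stayed between -2.197 and -1.32 over all alternatives.

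Placed against all genes, the separation of Sp5 and Nkd1 was not rare. A gene with all 3 NWD1 libraries above the 4 others was 1 of 1006, or 6.88% of the genes tested, and 2 of these 10 genes did so. Between NWD1 and AIN76A, 3 of the 10 (Axin2, Sp5 and Nkd1) did not overlap and were higher in NWD1, against 11.4% of all genes. Between NWD2 and NWD1, 3 of the 10 (Sp5, Nkd1 and Sox9) did not overlap and were lower in NWD2, against 14.5%. With 10 genes these shares carry little precision.

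Myc and Sox9 encode transcription factors of the crypt base and progenitor zone. Myc drives growth and proliferation. It had 12.3 and 22.2 CPM on the AIN76A diet, 22.5, 15.3 and 12.9 on NWD1 and 31.4 and 7.74 on NWD2. The 2 NWD2 libraries were the highest and the lowest of all 7. Its log2 fold changes were -0.02 (SE 0.54) for NWD1 and 0.18 (SE 0.59) for NWD2 against AIN76A, and 0.20 (SE 0.54) for NWD2 against NWD1, and the widest interval ran from -1.14 to 1.51.

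Sox9 is needed for Paneth cells and marks crypt progenitors. It had 13.4 and 26.2 CPM on the AIN76A diet, 42.8, 24.8 and 25.03 on NWD1 and 19.7 and 3.65 on NWD2. Both NWD2 libraries were below all NWD1 libraries, replicate 2 by a wide margin. The log2 fold change with NWD2 against NWD1 was -1.40 (SE 0.64, 95% interval -2.84 to 0.04, unadjusted p = 0.0550, edgeR adjusted p = 0.650), and edgeR with no filter called it (adjusted p = 0.0196). It was -0.64 without NWD2 replicate 2 and -3.11 without NWD2 replicate 1, so its size depends on which NWD2 library is kept. Against AIN76A, NWD2 gave -0.76 (SE 0.67) and NWD1 0.64 (SE 0.62), with overlapping libraries.

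Surface proteins that depend on Wnt are represented by Cd44 and Ephb2. Cd44 encodes the hyaluronan receptor of crypt cells. It had 8.59 and 17.5 CPM on the AIN76A diet, 16.5, 10.1 and 12.4 on NWD1 and 13.4 and 9.86 on NWD2. The 2 AIN76A libraries were the lowest and the highest of the 7, so no diet stood apart, and the log2 fold changes lay between -0.16 and -0.01. Ephb2, a receptor that keeps cells at the crypt base by sensing ephrin-B ligands, had 4.92 and 5.997 CPM on the AIN76A diet, 7.97, 8.26 and 4.58 on NWD1 and 5.07 and 10.1 on NWD2. Its highest and lowest values were in NWD2 replicate 2 and NWD1 replicate 3, and no comparison separated the diets.

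Of the ephrin-B ligands, Efnb1 had 37.6 and 72.5 CPM on the AIN76A diet, 68.0, 66.5 and 81.1 on NWD1 and 63.7 and 27.5 on NWD2. Both NWD2 values were below those of NWD1, with a log2 fold change of -0.65 (SE 0.40, edgeR adjusted p = 0.734). Efnb2 had 15.3 to 25.3 CPM over all libraries, and Efnb3, which did not pass the filter, had at most 0.317 CPM.

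Wnt3 encodes the ligand itself, supplied in the crypt epithelium by Paneth cells. It had 14.0 and 8.75 CPM on the AIN76A diet, 6.39, 5.09 and 8.90 on NWD1 and 3.83 and 7.42 on NWD2. Both NWD2 libraries were below both AIN76A libraries, which was so for 13.2% of all genes, while 1 NWD1 library overlapped with AIN76A. The log2 fold change was -1.02 (SE 0.45, 95% interval -2.03 to -0.01, unadjusted p = 0.0480, edgeR adjusted p = 0.996) with NWD2 and -0.76 (SE 0.40, interval -1.66 to 0.15, adjusted p = 0.878) with NWD1. Without AIN76A replicate 1 these were -0.64 and -0.38, and without NWD2 replicate 2 the value for NWD2 was -1.57. The unadjusted p for NWD2 was no longer under 0.05 with a term for replicate number or sex, or in a fit of only the diets compared. The same held when any 1 NWD1 library was left out. No p-value for Wnt3 is given for fits that kept a single AIN76A or NWD2 library.

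Most Paneth cell markers had lower values with NWD1 and NWD2 than with AIN76A, as Wnt3 did. Of 10 markers, 8 were lower with NWD1 and 9 with NWD2 against AIN76A, with median log2 fold changes of -0.49 and -0.997. Their summed level was 28938 to 42368 CPM on AIN76A, 15446 to 26428 on NWD1 and 22827 to 26261 on NWD2, and AIN76A replicate 1 was highest in both the sum and Wnt3. In NWD2 replicate 1, the library with the lowest Wnt3, Reg3g alone gave 15031 of the 26261 CPM. Reg3g was the 1 marker higher with NWD2 against AIN76A (log2 fold change 2.13), and without it the sums, computed after seeing the data, were 27306 and 40264 CPM on AIN76A, 14698 to 20214 on NWD1 and 11230 and 21542 on NWD2. None of the 10 was at 0 in any library. This direction was not particular to Paneth cells. Of 7 goblet cell markers, 7 were lower with NWD1 and 5 with NWD2 against AIN76A, with medians of -0.83 and -0.72. AIN76A replicate 1 also had the highest goblet sum, 16942 CPM. The part of either cell type in the result was not tested.

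**Figure D3:**
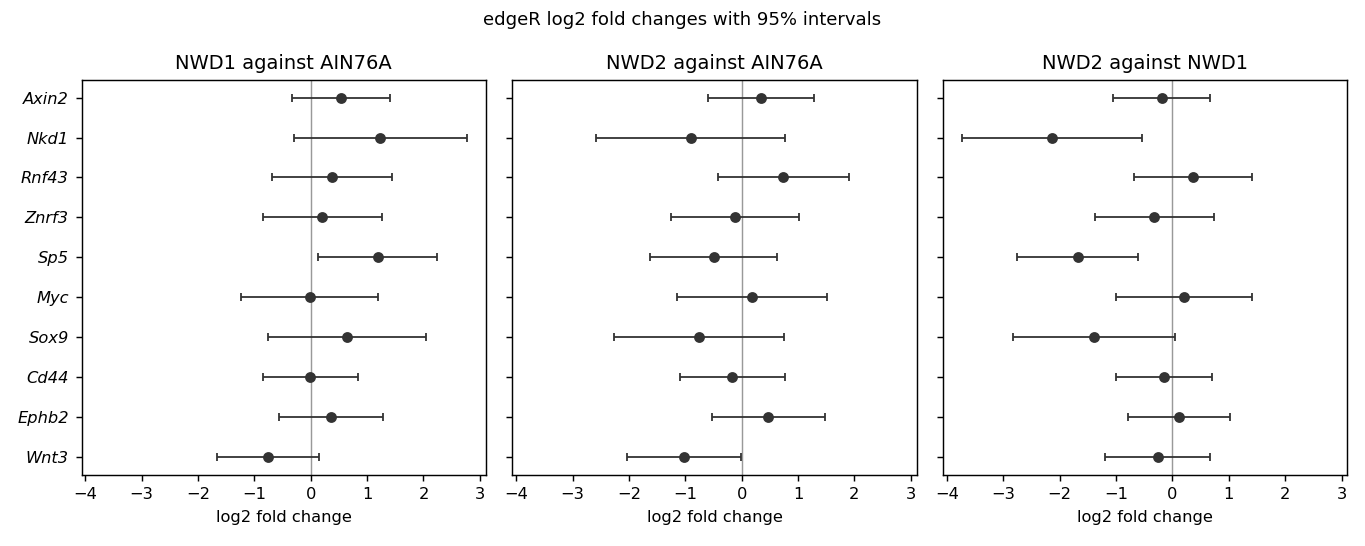
Log2 fold changes of the 10 genes from the edgeR fit with 95% intervals, in the 3 comparisons on a shared axis. The intervals leave out 0 for Sp5 with NWD1 and for Wnt3 with NWD2, both against AIN76A, and for Sp5 and Nkd1 with NWD2 against NWD1, and no gene passed the adjusted test.

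As a group, 7 of the 10 had a positive log2 fold change with NWD1 against AIN76A and the median was 0.37, beside 0.01 over all genes tested, of which 50.6% were positive. With NWD2 against AIN76A 4 were positive, with a median of -0.14 beside -0.03. With NWD2 against NWD1 3 were positive, with a median of -0.23 beside 0.05, and 53.5% of all genes were positive. At an unadjusted p under 0.05 stood 1, 1 and 2 of the 10 in these comparisons, which were Sp5, Wnt3, and Sp5 with Nkd1. Scaling by library size alone moved the median of all genes to 0.11, -0.15 and -0.19, with 9, 4 and 2 of the 10 positive. Without AIN76A replicate 2 the count with NWD2 against AIN76A was 7 positive with a median of 0.37, and without NWD2 replicate 1 the median was -0.77. The median with NWD1 against AIN76A was 0.19 without AIN76A replicate 1 and 0.81 without AIN76A replicate 2, and with NWD2 against NWD1 it was -0.49 without NWD2 replicate 2, -0.11 without NWD1 replicate 1 and -0.77 without NWD2 replicate 1.

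The highest and lowest values of the 10 genes fell in some libraries more than in others. How often each library was the extreme over all genes was not counted. NWD2 replicate 2 was the lowest library for 5 of the 10 genes (Myc, Sox9, Sp5, Znrf3 and Nkd1) and the highest for 2 (Rnf43 and Ephb2). NWD1 replicate 1 was the highest for 5 (Sox9, Sp5, Axin2, Znrf3 and Nkd1), and AIN76A replicate 1 the lowest for 3 (Rnf43, Cd44 and Axin2). Beside its low Epcam, NWD2 replicate 2 had the highest summed level of absorptive enterocyte markers, 68139 CPM against 29433 to 48302 elsewhere. Of 10 crypt base stem cell markers, a list that includes Axin2, 6 were lowest in that library. Their sum, 490 CPM, lay within the 418 to 1289 CPM of the other libraries, but 410 CPM of it was Olfm4, and without Olfm4 it was 79.9 CPM, the lowest of the 7, with at most 265 elsewhere. The sum without Olfm4 was added after seeing the data. The part of these cell types in the values was not tested.

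**Figure D4:**
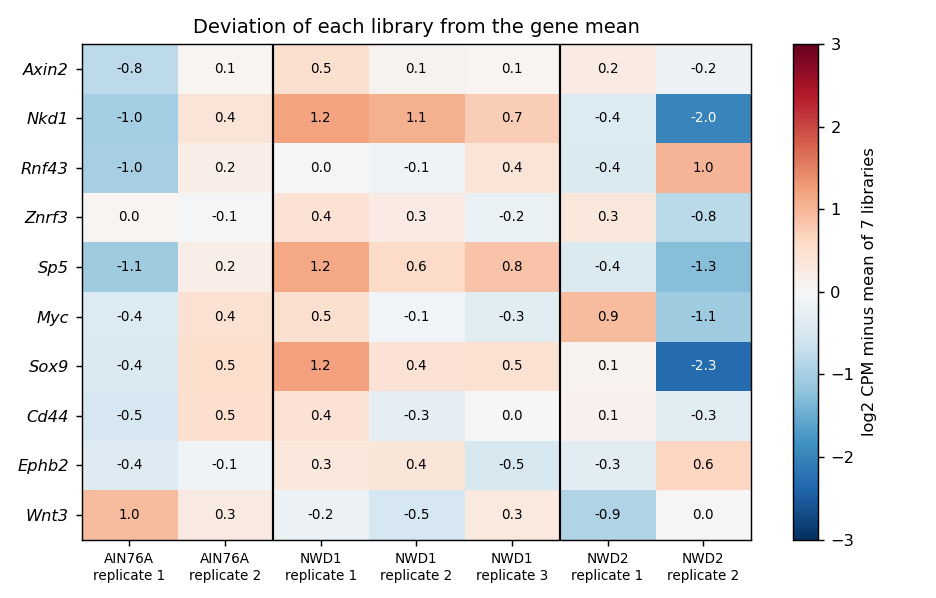
Deviation of each library from the gene's mean over 7 libraries, in log2 CPM (red higher, blue lower), with libraries grouped by diet. The deepest blues are Sox9 at -2.31 and Nkd1 at -1.97 in NWD2 replicate 2, where Rnf43 is red at 1.01, and Nkd1 and Sp5 are red in all 3 NWD1 libraries.

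For likeness to Axin2, 9446 genes were compared, with mean log2 CPM of 1 or more and symbols not of clones or predicted genes. The 5 whose log2 CPM followed Axin2 most closely over the 7 libraries included Tfdp1 (Pearson r 0.926, Spearman rho 0.714), Car12 (0.920, 0.679), Polm (0.900, 0.714) and Zzz3 (0.888, 0.714). They were chosen for this likeness, so no test is given. Without the 2 libraries farthest from the median of Axin2, AIN76A replicate 1 and NWD1 replicate 1, r lay between 0.353 for Car12 and 0.782 for Tfdp1. Among the 10 genes, r with Axin2 was highest for Cd44 (0.754) and Sp5 (0.731), 0.234 for Ephb2 and -0.741 for Wnt3. Without those 2 libraries the order was another, with 0.958 for Znrf3, 0.908 for Myc, 0.432 for Cd44 and 0.509 for Sp5, while Ephb2 turned to -0.707 and Rnf43 from 0.325 to -0.971. Spearman rho over all 7 was highest for Myc, at 0.821. The size and, for those 2 genes, the sign of r thus change with which libraries are used. The libraries share depth and cell composition in each of these values.

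The rest of the pathway was read from lists by role. Besides Wnt3, 18 Wnt ligand genes were in the table and 7 passed the filter. Wnt3 made up 30.2% to 55.5% of the summed TPM of all Wnt ligand genes and Wnt5b, a ligand of the beta-catenin-independent branch, 32.8% to 62.2%. The share of Wnt3 was 55.5% and 44.6% on AIN76A, 41.6%, 39.0% and 46.5% on NWD1 and 34.8% and 30.2% on NWD2. In this share both NWD2 libraries were below all 5 others. The level of Wnt3 itself in NWD2 replicate 2, 3.92 TPM, was above the 3.42 TPM of NWD1 replicate 2. Wnt5b was highest in NWD2 replicate 2, at 8.09 TPM. Wls, which carries Wnt proteins to the cell surface, had 14.1 to 28.5 CPM. Porcn, the enzyme that adds the lipid Wnt proteins need, had 1.73 to 3.87 CPM. None of the 4 R-spondin genes passed the filter, with at most 0.199 CPM for Rspo4 and 0 in every library for Rspo2. The next most abundant ligand genes were low, with 0.465 to 1.68 CPM for Wnt9b, 0.0965 to 1.01 for Wnt6 and 0.199 to 0.653 for Wnt5a.

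Receptors of Wnt and R-spondin had 15 of 18 genes tested, and 14 of the 15 were lower with NWD2 against NWD1, with a median log2 fold change of -0.59 beside 0.05 over all genes. Of them 6 did not overlap, beside 14.5% of all genes, and edgeR called none. Leaving out NWD2 replicate 2 made it 9 of 15 lower with a median of -0.36, and leaving out NWD2 replicate 1 made it 15 of 15 with a median of -1.07. Fzd5, a main Frizzled receptor of the crypt, had 21.2 and 21.0 CPM on the AIN76A diet, 24.6, 18.04 and 18.7 on NWD1 and 18.5 and 8.64 on NWD2. Lgr4, an R-spondin receptor, varied little, from 19.1 to 26.9 CPM, as did the co-receptor Lrp6, from 15.5 to 23.6 CPM, and Ryk, a receptor-like kinase, from 5.78 to 9.29 CPM. The exception among the 15 was Lgr5, the R-spondin receptor of crypt base stem cells, at 0.39, named after its value was seen. With NWD1 against AIN76A 10 of 15 receptors were higher (median 0.59), and 15 of 15 when scaled by library size alone. The median was 0.18 without AIN76A replicate 1, 0.90 without AIN76A replicate 2 and 0.21 without NWD1 replicate 3.

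**Figure D5:**
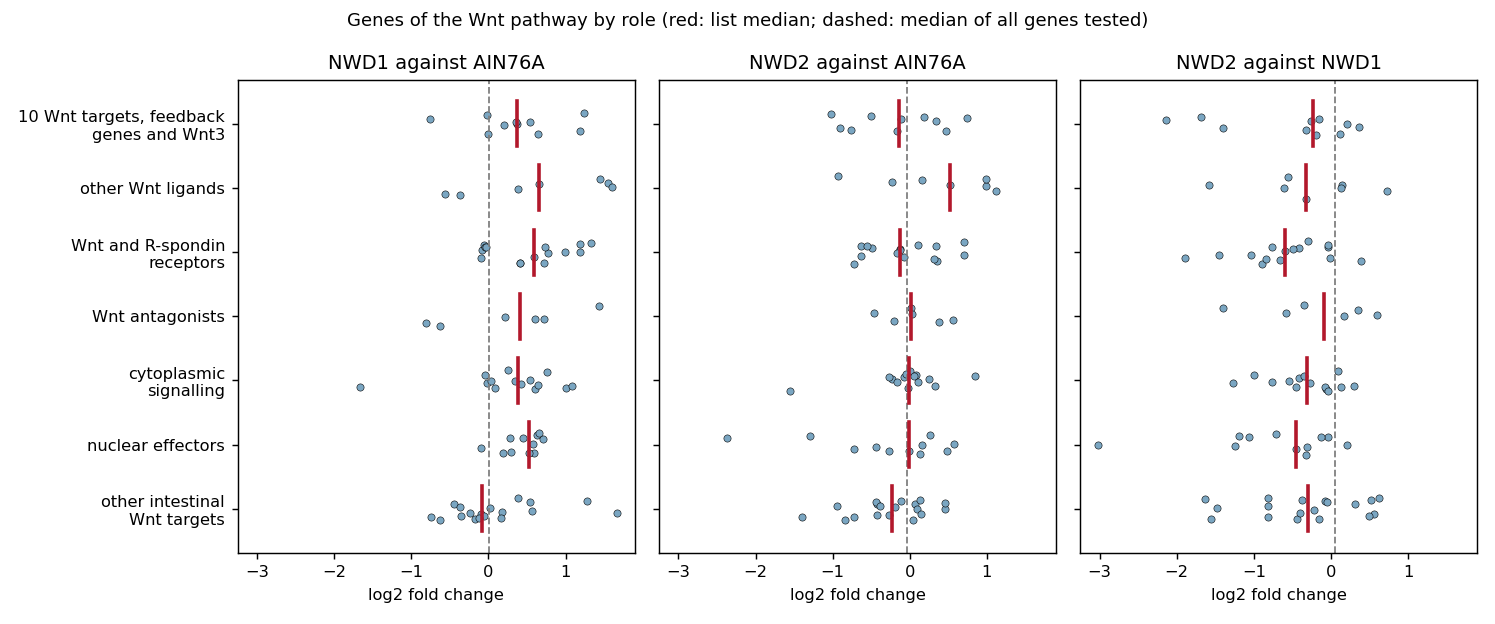
Log2 fold changes of the tested genes of the Wnt pathway, 1 point a gene, by role and comparison, with the list median in red and the median of all genes as a dashed line. With NWD2 against NWD1 the receptors and nuclear effectors lie mostly left of the dashed line, with medians of -0.59 and -0.45.

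In the cytoplasm, 11 of 14 tested genes of the destruction complex and its partners were higher with NWD1 against AIN76A (median 0.39). With NWD2 against NWD1 11 of 14 were lower (median -0.31, or -0.55 without NWD2 replicate 1). Without NWD2 replicate 2 it was 9 of 14 lower with a median of -0.26. The median with NWD1 against AIN76A was 0.29 without AIN76A replicate 1 and 0.47 without AIN76A replicate 2. Ctnnb1, which encodes beta-catenin, had 213 and 490 CPM on the AIN76A diet, 422, 491 and 614 on NWD1 and 355 and 246 on NWD2. NWD2 lay below NWD1 in every library, with a log2 fold change of -0.76 (SE 0.39, edgeR adjusted p = 0.692). The kinase gene Csnk1a1 had 174 to 256 CPM and Gsk3b 28.2 to 59.3 CPM. The scaffold gene Apc had 26.3 and 27.6 CPM on the AIN76A diet, 33.5, 45.9 and 43.9 on NWD1 and 33.7 and 34.2 on NWD2. Its log2 fold change with NWD1 against AIN76A was 0.61 (SE 0.25, edgeR unadjusted p = 0.038, adjusted p = 0.878). Gsk3a, a second kinase of the complex, named after its values were seen, had 6.79 and 10.6 CPM on the AIN76A diet, 17.4, 19.3 and 15.4 on NWD1 and 7.86 and 6.52 on NWD2. Its NWD1 libraries all lay above the other 4, with log2 fold changes of 1.002 (SE 0.31, adjusted p = 0.878) with NWD1 against AIN76A and -1.28 (SE 0.32, adjusted p = 0.481) with NWD2 against NWD1, where DESeq2 called it (adjusted p = 0.0212).

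Nuclear effectors were higher with NWD1 against AIN76A in 10 of 11 tested genes (median 0.52) and lower with NWD2 against NWD1 in 10 of 11 (median -0.45), or 9 of 11 with a median of -0.30 without NWD2 replicate 2. The median with NWD1 against AIN76A was 0.24 without AIN76A replicate 1 and 0.81 without AIN76A replicate 2. The exception with NWD2 against NWD1 was Tcf7l2, the main TCF factor of the intestine, which had 43.9 and 48.2 CPM on the AIN76A diet, 41.3, 64.8 and 61.4 on NWD1 and 59.4 and 69.2 on NWD2. The co-repressor gene Tle1 had 9.18 and 15.0 CPM on the AIN76A diet, 20.3, 13.8 and 21.8 on NWD1 and 12.4 and 5.39 on NWD2. Its log2 fold change with NWD2 against NWD1 was -1.07 (SE 0.42, unadjusted p = 0.0322, edgeR adjusted p = 0.591). Tle2, a low co-repressor gene named after its values were seen, was called by DESeq2 (adjusted p = 0.0443) and by edgeR with no filter (0.0304) in that comparison. Another co-repressor gene, Tle4, had 22.0 to 30.3 CPM. The co-activator gene Pygo2 had 8.11 to 27.1 CPM with its lowest value in NWD2 replicate 2. Because NWD1 is shared by both counts, a high value in its libraries moves both.

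Secreted and surface antagonists were mostly scarce, with 6 of 14 genes tested and 4 of them higher with NWD1 against AIN76A. Kremen1, a receptor for the inhibitor Dkk1, had 3.58 and 5.37 CPM on the AIN76A diet, 6.85, 7.94 and 7.30 on NWD1 and 6.72 and 4.89 on NWD2. The NWD1 libraries were above the others, but the lowest of them only narrowly above NWD2 replicate 1. The log2 fold change of Kremen1 was 0.72 (SE 0.34, edgeR adjusted p = 0.878) with NWD1 against AIN76A. With NWD2 against NWD1 it was -0.34 (SE 0.33, adjusted p = 0.793). Kremen2, of the same receptor family, had lower values in all NWD1 libraries than in AIN76A, with 5.67 and 3.48 CPM on the AIN76A diet, 3.12, 2.19 and 2.52 on NWD1 and 5.32 and 2.62 on NWD2. Wif1, a secreted Wnt inhibitor, had 0.738 and 0.991 CPM on AIN76A and 0.374 to 0.664 on NWD1, without overlap. On NWD2 it had 0.275 and 0.981 CPM. The log2 fold change of Wif1 with NWD1 against AIN76A was -0.63 (SE 0.64, edgeR adjusted p = 0.889). The count of 4 higher became 2 of 6, with a median of -0.26 in place of 0.41, without AIN76A replicate 1. It was 3 of 6 with a median of 0.037 without NWD1 replicate 1, and the median was 1.14 without AIN76A replicate 2. Sfrp5, a secreted Wnt-binding protein, ranged from 0.627 to 10.6 CPM with no separation by diet.

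A further 18 intestinal Wnt targets, all tested, had 8 members higher with NWD1 against AIN76A and a median of -0.08, which lay between -0.34 and 0.17 when 1 library was left out. With NWD2 against NWD1 13 were lower (median -0.29), while 8 of 18 were lower without NWD2 replicate 2 or NWD1 replicate 1, 16 of 18 without NWD2 replicate 1 and 7 of 18 with a term for the i5 index. The stem cell gene Olfm4 had 314 and 726 CPM on the AIN76A diet, 807, 273 and 375 on NWD1 and 1024 and 410 on NWD2. Mmp7, a Paneth cell protease gene, had 278 and 147 CPM in AIN76A against 88.0 to 193 CPM in the others. Id2, an inhibitor of helix-loop-helix factors, had 54.0 to 173 CPM, lowest in NWD1 replicate 3 and highest in AIN76A replicate 1. Cdx1, an intestinal identity factor gene, ranged from 18.2 CPM in NWD2 replicate 2 to 116 CPM in NWD1 replicate 1. Named after their values were seen, Jun and Bambi had log2 fold changes of -1.48 (SE 0.42, edgeR adjusted p = 0.504) and -1.56 (SE 0.30, adjusted p = 0.472) with NWD2 against NWD1. DESeq2 called both there (adjusted p = 0.0492 and 0.00049), as did edgeR with no filter (0.00966 and 0.0126), and DESeq2 also called Bambi against AIN76A (0.0198). Bambi, a decoy receptor gene, had 12.7 to 17.8 CPM in AIN76A and NWD1 and 6.02 and 4.76 CPM in NWD2.

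Beside the NWD2 comparisons, markers of 2 secretory cell types had lower values in all their members. Enteroendocrine markers summed to 457 to 648 CPM in NWD2 and 1685 to 2221 CPM in the other diets, and tuft cell markers to 61.7 to 76.0 against 115 to 301 CPM, with 8 of 8 of each lower against either diet. Leukocyte markers summed to 155 to 357 CPM on AIN76A, 44.8 to 323 on NWD1 and 51.5 to 75.4 on NWD2, mostly Cd74, so NWD2 lay below AIN76A. Without Cd74, a choice made after seeing the data, the sums were 13.9 and 14.5 CPM on AIN76A and 16.1 and 15.0 on NWD2, and 7 of the 9 markers had higher values with NWD2 against AIN76A (median log2 fold change 1.62), most of them at low levels. How far these cell types contribute to the values of the Wnt genes was not tested.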

How the data were processed

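Bulk RNA of sorted cells was amplified with SMART-Seq v4 and made into Nextera XT paired-end libraries, per the labels' protocols, without strand, so antisense and overlapping genes cannot be separated. The authors deposited whole-number counts per Ensembl gene and TPM. The submitters' processing notes name STAR 2.4.2a, HTSeq 0.6.1, edgeR and mm9, with no roles. Diet was taken from titles. TPM of all 7 libraries were recomputed from the counts with the gene lengths implied by the deposited TPM, and 1 TPM column matching no sample was not used. edgeR 4.0.16 in R 4.3.3 fitted 7 libraries with diet as the only term (TMM scaling, filterByExpr, robust quasi-likelihood F test, 4 residual degrees of freedom), with Benjamini-Hochberg adjustment over 14626 genes and a threshold of 0.05. The test was also run on simulated data. An exact permutation test could not go below p = 0.333 with 2 against 2 or 0.1 with 3 against 2 libraries. Alternatives were DESeq2 1.42.0, limma 3.58.1 (voom, log2(TPM + 1)), other scalings and filters, terms for replicate number, sex or i5 index, only the diets compared, and each library left out. Where that leaves 1 library of a diet, it is assumed to vary like the others. Counts of pathway lists under these settings were added after seeing the data. The members, 8 other pathway lists and 11 marker lists were chosen with earlier results of these data known. Named from each pathway list were up to 4 genes of highest mean level over 7 libraries, with untested R-spondins given as a group, and the 5 genes most like Axin2, of which 1 is not reported here.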

Additional observations from a re-analysis of the deposited data

How the results depend on the processing

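The numbers of genes called by edgeR, 0 in each comparison, were 85, 190 and 384 with no filter on low counts (NWD1 against AIN76A, NWD2 against AIN76A, NWD2 against NWD1) and 1, 52 and 180 with DESeq2. Limma on log2(TPM + 1) called 1 gene with NWD1 against AIN76A and 1 with NWD2 against NWD1. An i5 index term gave 1 gene with NWD2 against AIN76A and 2 with NWD2 against NWD1, and a fit of the 2 diets alone 6 with NWD2 against AIN76A. Within a diet the index differed only in NWD1, where replicate 3 alone had N504. All values with an i5 index term thus rest on that shallow and less certainly labelled library. With a replicate block 1 gene was called with NWD2 against AIN76A, and 0 in the other comparisons. Deviations of same-numbered libraries from their diet means had r between -0.00022 and 0.26 over 6 pairs. Those of other-numbered libraries had r between -0.26 and 0.17 over 10 pairs. With 2 libraries in a diet, their deviations mirror each other, so these values cannot decide whether the numbers pair libraries. The reported fit held no replicate term. Leaving out 1 library gave 0 to 1 genes with NWD2 against NWD1, the 1 without NWD2 replicate 2. The cause of these differences was not tested.

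Of 30 log2 fold changes of the 10 genes, 12 kept their sign under every alternative, among them those of Sp5, Nkd1 and Wnt3 with NWD1 against AIN76A and of Sp5, Nkd1 and Sox9 with NWD2 against NWD1. Of 540 values under alternatives 50 had the opposite sign, and 3 passed the threshold that the reported value did not, all given with Sp5 and Sox9. The alternatives are not independent of each other. A sex term takes up the only female library, NWD1 replicate 2, so it nearly repeats leaving that library out. With NWD1 against AIN76A, an i5 index term likewise nearly repeats leaving out NWD1 replicate 3. With NWD1 against AIN76A, leaving out single libraries gave -0.11 to 1.09 for Rnf43, -0.39 to 0.47 for Myc, -0.44 to 0.60 for Cd44. Opposite signs under other settings were Myc 0.071 (library size only), 0.052 (limma voom), 0.32 (limma on log2(TPM + 1)), 0.0057 (replicate block), 0.048 (sex term), 0.14 (i5 index term), and Cd44 0.084 (library size only), 0.069 (limma voom), 0.18 (limma on log2(TPM + 1)), 0.013 (replicate block), 0.15 (sex term), 0.027 (i5 index term). With NWD2 against AIN76A, leaving out single libraries gave -0.022 to 0.84 for Axin2, -0.15 to 1.47 for Rnf43, -0.88 to 0.36 for Znrf3, -1.02 to 0.29 for Sp5, -2.11 to 0.034 for Nkd1, -1.19 to 0.87 for Myc, -0.59 to 0.44 for Cd44, -0.10 to 0.84 for Ephb2. Opposite signs under other settings were Znrf3 0.44 (i5 index term), and Myc -0.050 (limma voom), -0.070 (limma on log2(TPM + 1)), -0.073 (replicate block). With NWD2 against NWD1, leaving out single libraries gave -0.46 to 0.014 for Axin2, -0.52 to 0.88 for Rnf43, -1.07 to 0.16 for Znrf3, -1.17 to 0.89 for Myc, -0.43 to 0.053 for Cd44, -0.45 to 0.50 for Ephb2, -0.81 to 0.10 for Wnt3. Opposite signs under other settings were Znrf3 0.086 (i5 index term), and Myc -0.10 (limma voom), -0.39 (limma on log2(TPM + 1)), -0.079 (replicate block), and Ephb2 -0.18 (library size only), -0.0086 (limma voom), -0.20 (limma on log2(TPM + 1)), -0.17 (replicate block). The cause was not tested. Limits are few libraries per diet, the shallow and less certainly labelled NWD1 replicate 3, the divergent NWD2 replicate 2, and low counts of Nkd1.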
